A study of Homo sapiens with 192 samples.

Results

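The genes described here are 10 antiviral effectors and regulators that type I and type III interferons are known to induce: OAS1, OAS2, OAS3, OASL, MX1, MX2, ISG15, USP18, IFI6 and ISG20. They were chosen by name, as the 2'-5' oligoadenylate synthetase family, both MX GTPases, the ubiquitin-like protein ISG15 with its protease USP18, and the interferon-inducible genes IFI6 and ISG20, and they are 10 of the 58243 genes in the count files. Messenger RNA was sequenced from 4 colorectal cancer (CRC) lines, namely HCT116, LS174T, HT29 and LS513, cultured either flat, in 2D, or in 3D, with 3 libraries for each of the 8 groups. No treatment or genetic change is named in the labels of any group, and each line stands for a single tumor. The study kept HCT116 in a different medium from the other lines, so line and medium cannot be told apart, and the way the 3D cultures for sequencing were grown is not given in the sources used here. The labels do not say whether libraries of a group came from separate cultures, so p-values measure the spread between these libraries, which may be technical.

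Interferon signaling works through the receptors IFNAR1 with IFNAR2, for type I, or IFNLR1 with IL10RB, for type III, which is the main arm in many epithelia including that of the gut. Receptor binding activates the kinases JAK1 and TYK2, and a transcription factor complex that includes STAT2 and IRF9 then binds the interferon-stimulated response element in promoters of induced genes. OAS1, OAS2 and OAS3 sense double-stranded RNA and make 2'-5' oligoadenylates, a second messenger of the antiviral response, whereas OASL lacks that enzyme activity and acts on RIG-I signaling. MX1 and MX2 are dynamin-like GTPases that block viruses, ISG20 is an exonuclease and IFI6 is a small membrane protein with antiviral activity. ISG15 is coupled to other proteins, and USP18 removes it and also holds back signaling at IFNAR2.

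OAS1, OAS3 and OAS2 lie next to each other in that order on the plus strand of chromosome 12 (GRCh38, GENCODE 29), at chr12:112906777-112933222, chr12:112938352-112973249 and chr12:112978395-113011723. OASL lies farther along the same chromosome on the minus strand, at chr12:121019111-121039242. MX2 and MX1 are also neighbors on the plus strand, at chr21:41361943-41409390 and chr21:41420304-41459214. ISG15 is at chr1:1001138-1014540 on the plus strand, IFI6 at chr1:27666061-27672218 on the minus strand, USP18 at chr22:18149899-18177397 on the plus strand and ISG20 at chr15:88636153-88656483 on the plus strand.

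Promoter windows from 250 bases before to 50 after a gene start were taken from RefSeq (GRCh38.p14), and 6 of the 10 genes matched: ISG15, IFI6, OAS1, OAS3, ISG20 and MX1. OAS2, OASL, MX2 and USP18 had no entry. The core of an interferon-stimulated response element, GAAANNGAAA, was searched on both strands and occurred in 3.57% of all 35116 windows, and the shorter form GAAANGAAA, which can share bases with it, occurred in 3.12%. The stretches below show matches before genes whose growth effect differed between the lines, ISG15, IFI6, OAS1 and OAS3, and before ISG20, which rose in all of them, with the matches in capitals.
ISG15, chr1:1013372-1013411, plus strand: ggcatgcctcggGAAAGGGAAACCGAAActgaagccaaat
IFI6, chr1:27672327-27672360, minus strand: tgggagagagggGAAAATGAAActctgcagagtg
OAS1, chr12:112906933-112906965, plus strand: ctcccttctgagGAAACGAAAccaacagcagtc
OAS3, chr12:112938314-112938352, plus strand: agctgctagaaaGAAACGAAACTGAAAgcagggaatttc
ISG20, chr15:88638935-88638968, plus strand: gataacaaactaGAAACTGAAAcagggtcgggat
The 10-letter form was matched in ISG15, IFI6, OAS3, ISG20 and MX1. OAS1 held the 9-letter form alone, with its first base at position -17 from the gene start. Another motif, TTCNNNGAA, occurred in 7.66% of all windows and was found in windows of OAS1 and MX1. These matches describe letters in the windows, and binding was not measured.

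Libraries held 18723942 to 34277421 counts, with a median of 30777614. Levels are given as CPM, a count relative to the size of its library, after normalization by the trimmed mean of M-values (TMM), and a gene with at most 3 counts in a library, equal to 0.0875 to 0.160 CPM before scaling, was taken as at the floor. All 10 genes passed the filter on low counts with which 19387 genes were tested. All 8 epithelial markers were above the floor in every library of HT29, LS513 and LS174T, and 7 were in HCT116, where CDX1 was at or under the floor. Among 7 leukocyte markers, PTPRC, CD3E, MS4A1, CLEC4C and NKG7 were at or under the floor in every library. The leukocyte list summed to 6.79 to 7.98 CPM in HT29 grown in 2D and to 12.7 to 17.5 CPM in 3D, from CD14 and ITGAM, and to at most 1.06 CPM in the other lines. The part of this rise in the changes of HT29 was not tested.

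Growth in 3D raised all 10 genes in HCT116, 9 in HT29, 5 in LS513 and 3 in LS174T, at an adjusted p under 0.05 in the edgeR quasi-likelihood test. Of all genes tested, 16.8% rose in HCT116, 21.1% in HT29, 13.7% in LS513 and 13.1% in LS174T. ISG15, OAS1 and ISG20 rose in each of the 4 lines. OAS3 fell in LS174T, where 9.15% of genes fell, and it was the only one of the 10 genes to fall in any line. None fell in HT29, LS513 or HCT116, where 19.6%, 9.90% and 12.3% of genes fell, and the count stayed at 0 in each of these lines at an unadjusted p under 0.05 and with DESeq2. Every 3D library lay above every 2D library for 10 of the genes in HCT116, against 22.8% of all genes, for 9 in HT29, against 27.3%, for 6 in LS513, against 23.0%, and for 6 in LS174T, against 20.9%.

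The median log2 fold change over the 10 genes was 3.05 in HCT116, 1.80 in HT29, 0.66 in LS513 and 0.46 in LS174T, while the median over all tested genes was at most 0.02 in each line. Where a gene with its 2D libraries at the floor was set to its lower bound and a gene at the floor in both conditions was left out, the medians were 2.64, 1.80, 0.71 and 0.44. The summed level of the 10 genes was 163 CPM in 2D and 1225 CPM in 3D for HCT116, 128 and 245 CPM for HT29, and 225 and 336 CPM for LS513. In LS174T the sum was 175 CPM in 2D and 178 CPM in 3D.

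**Figure D1:**
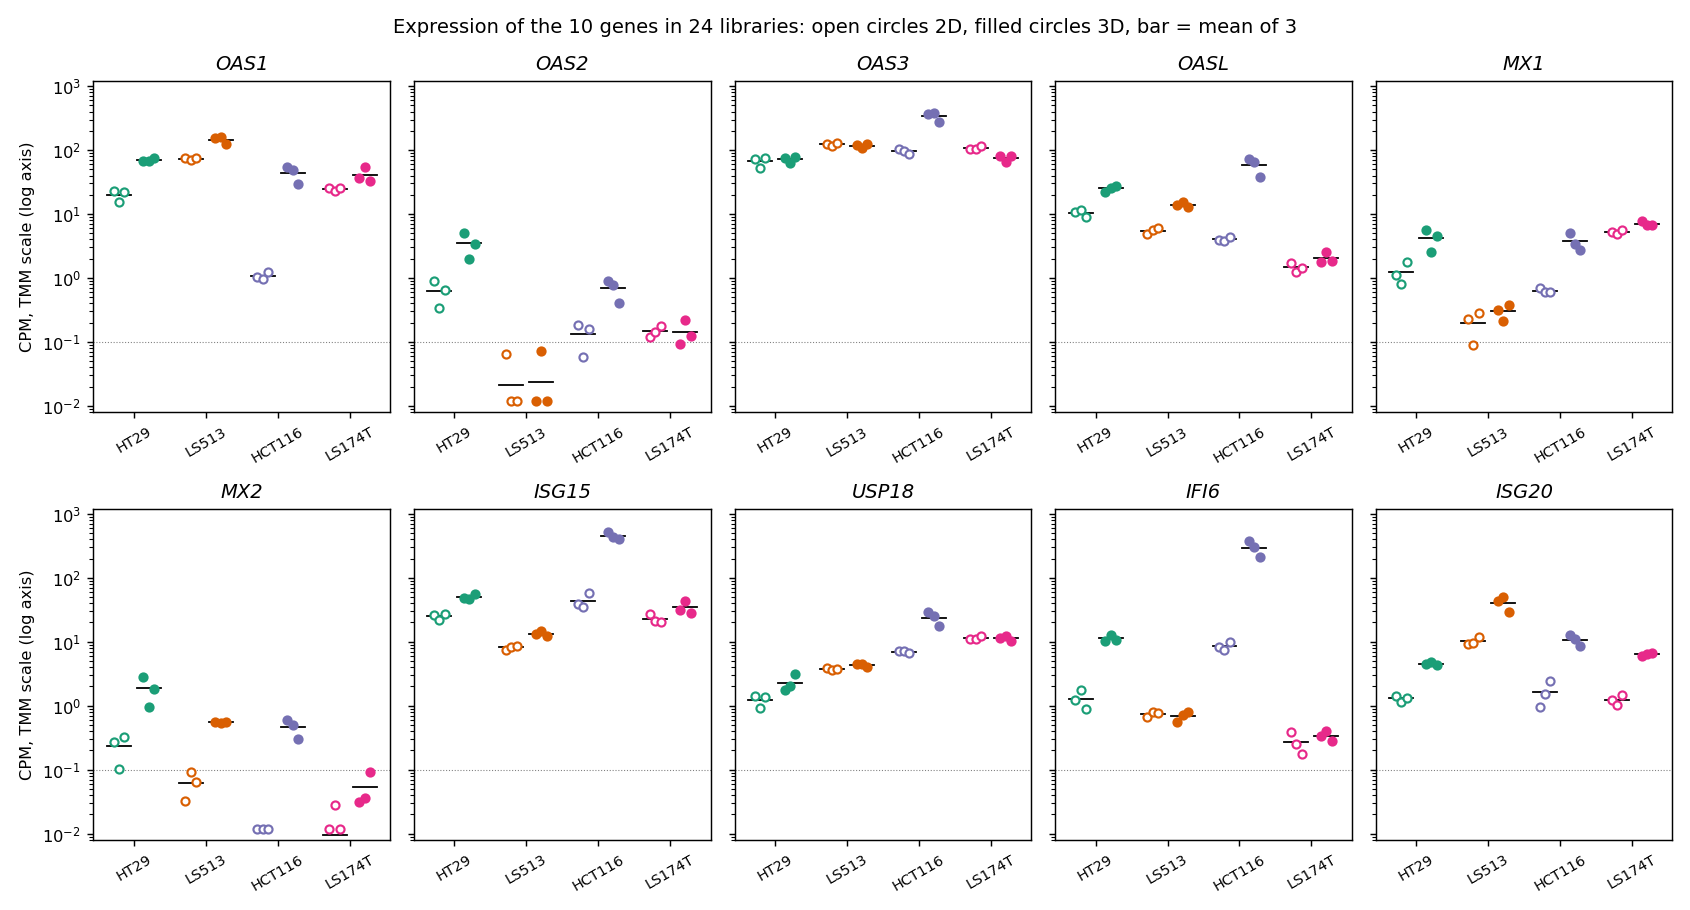
Level of each gene in CPM on the TMM scale (log axis) in all 24 libraries, with open circles for 2D, filled circles for 3D and a bar at the mean of 3 libraries. Libraries with 0 counts are drawn at the lowest points, the dotted line marks 0.1 CPM, and the 3 HCT116 libraries grown in 3D lie above their 2D libraries for all 10 genes.

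OAS1, the smallest synthetase, had the largest fitted change of the OAS genes in HCT116. Its level in that line was 1.03, 0.949 and 1.25 CPM in the 2D libraries and 53.7, 48.9 and 29.9 CPM in the 3D libraries. This was a 41.0-fold rise (log2 fold change 5.36, SE 0.25, adjusted p = 7.16e-13), and the lowest 3D library was far above the highest 2D library. In HT29 the libraries went from 22.6, 15.2 and 22.0 CPM to 66.8, 66.7 and 73.9 CPM (log2 fold change 1.80, SE 0.19, adjusted p = 2.30e-07). In LS513 they went from 75.2, 69.5 and 74.6 CPM to 152, 158 and 125 CPM (0.99, SE 0.18, adjusted p = 0.000349). The LS513 libraries in 2D and the HT29 libraries in 3D overlapped, all within 66.7 to 75.2 CPM. In LS174T the values were 25.9, 22.8 and 25.6 CPM in 2D and 36.4, 54.4 and 32.4 CPM in 3D (0.73, SE 0.19, adjusted p = 0.00788), and replicate 2 in 3D stood above the others.

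OAS3, the largest family member, which makes the longest oligoadenylates, rose in HCT116 alone and fell in LS174T. In HCT116 it went from 104, 97.9 and 86.9 CPM to 360, 377 and 276 CPM (log2 fold change 1.81, SE 0.13, adjusted p = 1.30e-09). In HT29 the 2D libraries at 72.2, 51.9 and 75.5 CPM overlapped the 3D libraries at 76.4, 63.8 and 78.8 CPM (0.14, SE 0.13, adjusted p = 0.437). The conditions also overlapped in LS513, with 124, 116 and 130 CPM in 2D and 118, 107 and 124 CPM in 3D (-0.08, SE 0.13, adjusted p = 0.727). In LS174T all 3 libraries in 3D, at 79.6, 65.7 and 80.1 CPM, lay below those in 2D, at 103, 104 and 115 CPM (-0.51, SE 0.13, adjusted p = 0.00796).

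OAS2, the remaining synthetase of the cluster, was scarce. In HT29 it went from 0.892, 0.344 and 0.657 CPM to 5.07, 1.97 and 3.41 CPM (log2 fold change 2.47, SE 0.42, adjusted p = 7.69e-05). In HCT116 it went from 6, 2 and 5 counts to 27, 24 and 12 counts (2.36, SE 0.56, adjusted p = 0.00291). LS513, the line with the most OAS1, had at most 2 counts of OAS2 in any library of either condition. LS174T had 4, 5 and 6 counts in 2D and 3, 6 and 4 counts in 3D. The 3 neighboring genes therefore did not share an order of levels across the lines, since OAS1 and OAS3 were highest in 2D in LS513 and OAS2 in HT29.

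OASL, the member without synthetase activity, rose in 3 lines. HCT116 libraries went from 3.99, 3.74 and 4.36 CPM to 73.7, 65.4 and 38.4 CPM, a 14.7-fold rise (log2 fold change 3.88, SE 0.20, adjusted p = 4.56e-12). HT29 libraries went from 10.7, 11.4 and 8.98 CPM to 22.3, 25.4 and 27.8 CPM (1.28, SE 0.18, adjusted p = 1.02e-05), and LS513 libraries from 4.89, 5.53 and 6.11 CPM to 13.8, 15.4 and 12.9 CPM (1.35, SE 0.19, adjusted p = 1.48e-05). LS174T was the lowest line in both conditions, at 1.73, 1.25 and 1.42 CPM in 2D and 1.75, 2.59 and 1.87 CPM in 3D. Its conditions did not overlap, but the difference did not pass the test (0.49, SE 0.23, adjusted p = 0.139).

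MX1, a GTPase of the cytoplasm, was most abundant in LS174T. That line had 5.20, 4.81 and 5.66 CPM in 2D and 7.73, 6.82 and 6.70 CPM in 3D, which did not overlap, and the log2 fold change of 0.44 (SE 0.25) did not pass the test (adjusted p = 0.217). HT29 went from 1.10, 0.791 and 1.81 CPM to 5.67, 2.52 and 4.50 CPM (1.83, SE 0.30, adjusted p = 4.74e-05). HCT116 went from 0.695, 0.604 and 0.610 CPM to 5.02, 3.43 and 2.77 CPM (2.55, SE 0.31, adjusted p = 2.55e-06). LS513 held 7, 3 and 9 counts in 2D and 9, 6 and 11 counts in 3D, which overlapped.

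MX2, which acts at the nuclear envelope, had at most 8 counts in any 2D library. HCT116 had 0 counts in all 3 libraries in 2D and 18, 15 and 9 counts in 3D, at least 5.09-fold higher when the 2D group was set to 3 counts per library (adjusted p = 3.38e-05). LS513 had 1, 3 and 2 counts in 2D and 16, 15 and 16 counts in 3D, at least 5.85-fold higher by the same floor (adjusted p = 0.000617). HT29 went from 8, 3 and 6 counts to 93, 28 and 51 counts (log2 fold change 3.04, SE 0.44, adjusted p = 1.83e-05). In LS174T no library had more than 3 counts. MX2 rose in LS513 while its neighbor MX1 stayed at 3 to 11 counts there.

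ISG15, the ubiquitin-like modifier, rose in all 4 lines. HCT116 libraries went from 39.1, 34.5 and 56.8 CPM in 2D to 516, 433 and 403 CPM in 3D, a 10.4-fold rise (log2 fold change 3.37, SE 0.18, adjusted p = 5.12e-12). HT29 libraries went from 25.9, 22.0 and 26.7 CPM to 48.0, 47.0 and 55.2 CPM (1.01, SE 0.17, adjusted p = 6.11e-05). LS513 libraries went from 7.53, 8.34 and 8.52 CPM to 13.3, 14.5 and 12.1 CPM (0.71, SE 0.18, adjusted p = 0.00561), so its 3D libraries still lay below the 2D libraries of the other lines. LS174T libraries went from 26.8, 21.3 and 20.4 CPM to 30.9, 44.0 and 28.0 CPM (0.58, SE 0.17, adjusted p = 0.0158). Per kilobase of the longest transcript, ISG15 was the most abundant of the 10 genes in both conditions of HT29, HCT116 and LS174T, at 572 CPM per kilobase in HCT116 grown in 3D. In LS513 OAS1 led on that scale, at 30.3 CPM per kilobase in 2D and 60.2 in 3D, and over all exons OAS3 led in 2D.

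USP18, which removes ISG15 from its targets, rose in HCT116, from 7.13, 7.10 and 6.58 CPM to 28.7, 25.3 and 17.7 CPM (log2 fold change 1.79, SE 0.17, adjusted p = 6.51e-08). In HT29 it went from 1.41, 0.929 and 1.37 CPM to 1.75, 2.04 and 3.08 CPM (0.89, SE 0.22, adjusted p = 0.00274). LS174T had the most USP18 in 2D, at 11.2, 11.0 and 12.4 CPM, and the 3D libraries at 11.3, 12.4 and 10.4 CPM overlapped them (-0.03, SE 0.17, adjusted p = 0.948). LS513 had 3.93, 3.60 and 3.77 CPM in 2D and 4.44, 4.48 and 4.09 CPM in 3D, which did not overlap but did not pass the test (0.20, SE 0.18, adjusted p = 0.471). Reads that align more than once were removed from the deposited counts, so USP18 is uncertain where it shares sequence with its near-identical copy USP41. USP41 had 3 to 5 counts in 2D and 10 to 21 counts in 3D in HCT116 and rose there (adjusted p = 0.00820). It had at most 5 counts in any library of the other lines.

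IFI6 had the widest range between lines in 3D. HCT116 libraries went from 8.31, 7.42 and 9.75 CPM in 2D to 371, 303 and 208 CPM in 3D, a 34.6-fold rise (log2 fold change 5.11, SE 0.19, adjusted p = 2.47e-14). HT29 libraries went from 1.24, 1.76 and 0.877 CPM to 10.4, 12.9 and 10.6 CPM (3.09, SE 0.22, adjusted p = 1.05e-09). In LS513 the 2D libraries at 0.676, 0.786 and 0.760 CPM overlapped the 3D libraries at 0.564, 0.710 and 0.797 CPM (-0.10, SE 0.33, adjusted p = 0.900). LS174T had 6 to 13 counts in 2D and 9 to 11 counts in 3D. The mean level in 3D was 869-fold higher in HCT116 than in LS174T, compared with 31.0-fold in 2D.

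ISG20, the exonuclease, rose in every line, from 3.49-fold in HT29 to 6.59-fold in HCT116. LS174T libraries went from 1.23, 1.02 and 1.45 CPM to 5.92, 6.49 and 6.70 CPM (log2 fold change 2.37, SE 0.25, adjusted p = 5.91e-07), which was the largest change of the 10 genes in that line among those above the floor. LS513 libraries went from 9.20, 9.64 and 11.9 CPM to 42.9, 49.4 and 29.2 CPM (1.98, SE 0.21, adjusted p = 3.64e-07). HT29 libraries went from 1.44, 1.14 and 1.32 CPM to 4.56, 4.74 and 4.28 CPM (1.80, SE 0.26, adjusted p = 1.28e-05). HCT116 libraries went from 0.967, 1.52 and 2.44 CPM to 12.8, 11.1 and 8.49 CPM (2.72, SE 0.24, adjusted p = 2.22e-08).

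**Figure D2:**
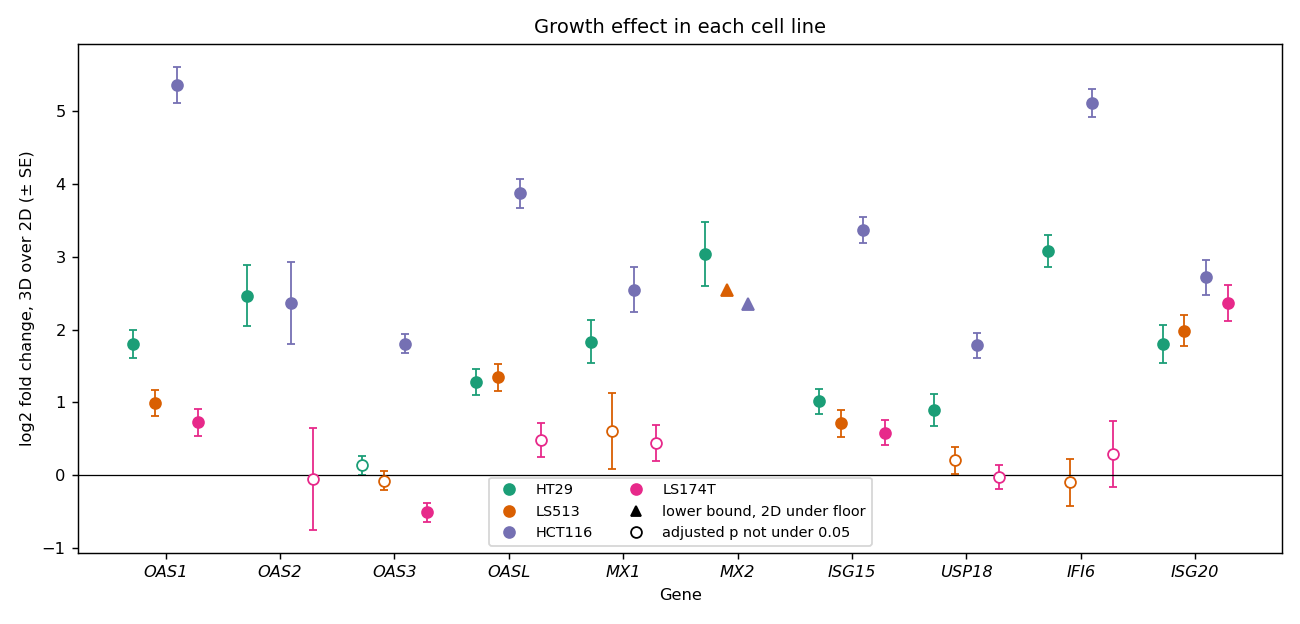
Log2 fold change of 3D over 2D with its SE for each gene and line. Filled points passed an adjusted p of 0.05, triangles are lower bounds for MX2 in LS513 and HCT116, and pairs at the floor in both conditions are left out. HCT116 lies highest for OAS1, OAS3, OASL, MX1, ISG15, USP18, IFI6 and ISG20. ISG20 passed in all 4 lines at 1.80 to 2.72, and its SE ranges in HCT116 and LS174T overlap.

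The calls in LS174T rested in part on single libraries. Without 3D replicate 2 of that line, ISG20 alone rose, with a log2 fold change of 0.48 and an adjusted p of 0.0835 for OAS1 and of 0.38 and 0.134 for ISG15, and the fall of OAS3 was -0.41 with an adjusted p of 0.0595. ISG15 also missed the threshold without 2D replicate 2 (0.065) or 2D replicate 3 (0.0767). In the other lines the number of genes that rose stayed at 9 in HT29, 5 in LS513 and 10 in HCT116 when any 1 library was left out.

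In HCT116 grown in 3D, the libraries differed among themselves in a shared order. Replicate 1 was highest for 9 of the 10 genes, and replicate 3 was lowest for all 10. The summed level of the genes was 1423, 1268 and 984 CPM in replicates 1, 2 and 3, against 154 to 169 CPM in 2D. The share of counts from mitochondrial genes followed the same order in these 3 libraries, at 6.40%, 2.45% and 1.66%, with 1.14% to 1.84% in 2D, and its part in the spread was not tested. Replicate 3, the lowest of the 3D libraries, was still above all 2D libraries for all 10 genes.

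The growth effect differed between the 4 lines for 7 of the 10 genes in an interaction test, compared with 17.1% of all genes: OAS1, OAS3, OASL, MX1, ISG15, USP18 and IFI6. ISG20, OAS2 and MX2 did not pass, with adjusted p of 0.189, 0.120 and 0.193. HCT116 differed from LS174T for those same 7 genes (4.75% of all genes), from LS513 for 6 (4.34%) and from HT29 for 5 (7.76%), which were OAS1, OAS3, OASL, ISG15 and IFI6. HT29 differed from LS174T for 5 genes (6.65%) and from LS513 for OAS1 and IFI6 (12.1%). LS513 and LS174T differed for 0 of the 10 genes in edgeR, compared with 3.62% of all genes, and for 2 at an unadjusted p under 0.05. For ISG20 the difference between HCT116 and LS174T in log2 fold change was 0.36 with a 95% interval from -0.32 to 1.04, and between HT29 and LS513 it was -0.18 with an interval from -0.85 to 0.49.

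The lines also differed before any growth in 3D. The 2D level differed between the 4 lines for all 10 genes, which is close to the 91.7% of all genes that did so. Between pairs of lines the 2D level differed for 10 genes between HT29 and LS513 (60.6% of all genes), 10 between LS513 and HCT116 (68.3%), 9 between HT29 and HCT116 (68.8%), 8 between LS513 and LS174T (57.6%), 7 between HT29 and LS174T (64.6%) and 6 between HCT116 and LS174T (68.3%). No line was highest throughout. HT29 led in 2D for OAS2, OASL and MX2, LS513 for OAS1, OAS3 and ISG20, HCT116 for ISG15 and IFI6, and LS174T for MX1 and USP18.

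Several neighbors in the order of 2D levels did not differ beyond their spread. For OAS1 the order was LS513, LS174T, HT29 and HCT116, in which LS174T and HT29 were not separated (adjusted p = 0.150). For OAS3 LS513 and LS174T (adjusted p = 0.189) and LS174T and HCT116 (adjusted p = 0.316) were not separated. For ISG15 HT29 and LS174T were not separated (adjusted p = 0.552), and for ISG20 neither HCT116 and HT29 (adjusted p = 0.304) nor HT29 and LS174T (adjusted p = 0.854). OAS2 in LS174T and HCT116 was not separated either, nor was MX2 in LS174T from LS513 or from HCT116.

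HCT116 had the lowest 2D level of the 4 lines for OAS1 and MX2 alone, whereas its fitted growth effect was the largest for 9 of the 10 genes, that of MX2 resting on 2D libraries at 0 counts. The growth effect and the 2D level use the same 2D libraries. For OAS1 the highest and lowest lines differed 68.0-fold in 2D and 3.54-fold in 3D, whereas for OAS3 they differed 1.85-fold in 2D and 4.63-fold in 3D and for ISG15 5.35-fold and 33.9-fold. In 3D HCT116 was the highest line for 5 of the genes, OAS3, OASL, ISG15, USP18 and IFI6.

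**Figure D3:**
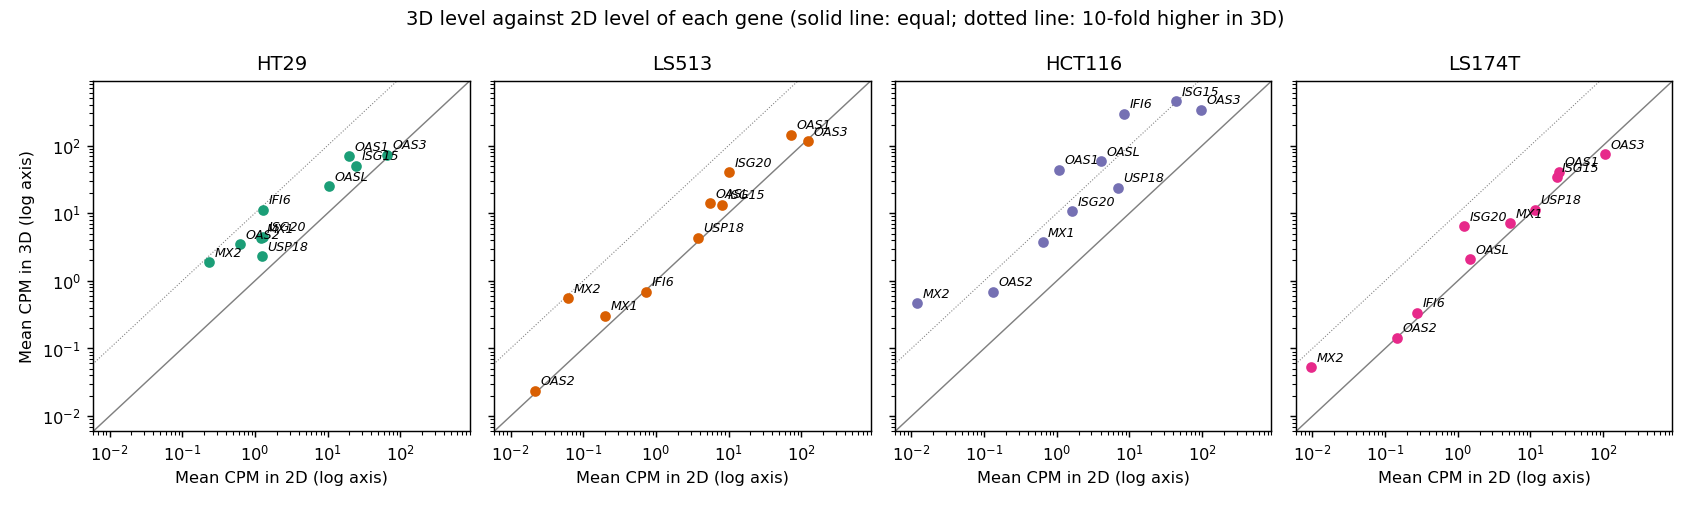
Mean level of each gene in 3D against its mean level in 2D, in CPM on log axes, with 1 panel for each line. The solid line marks equal levels and the dotted line a 10-fold rise, and a mean of 0 is drawn near the left edge. IFI6, OAS1, OASL and ISG15 of HCT116 lie on or above the dotted line. MX2 of HCT116 is also drawn above it, but its 2D mean was 0, so its place there is not a measured fold change.

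The partners of ISG15 were compared next, as a list of 6 genes for its conjugation. In HCT116 5 of the 6 rose, against 16.8% of all genes. They were HERC6 (log2 fold change 1.86), UBA7, the activating enzyme (1.45), UBE2L6, the conjugating enzyme (1.30), HERC5, the main ligase (1.10), and TRIM25 (0.43). UBA7 was uneven, at 0.267 to 2.46 CPM in the 3D libraries and 0.257 to 0.546 CPM in 2D, which overlapped. In HT29 UBA7 (2.12) and HERC6 (1.62) rose, and UBE2L6 rose from at most 3 counts to 13 to 54 counts, while TRIM25 (-0.45) and ARIH1 (-0.64) fell. Of all genes, 21.1% rose and 19.6% fell in HT29. In LS513 0 of the 6 passed in edgeR in either direction, compared with 1 higher and 0 lower at an unadjusted p under 0.05 and 1 higher with DESeq2. Of all genes, 13.7% rose and 9.90% fell in LS513 in edgeR. LS513 had at most 1 count of UBE2L6 and of HERC5 in any library, and LS174T at most 1 count of HERC5, while LS174T held 6.37 to 8.76 CPM of UBA7 in 2D. ARIH1 fell in LS174T (-0.37).

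Both genes examined downstream of the synthetases gave small changes. ABCE1, a ribosome recycling factor, fell in HT29 (-0.83), LS513 (-0.42) and HCT116 (-0.51). PDE12, which degrades oligoadenylates, fell in all 4 lines, with log2 fold changes of -0.58 (HT29), -0.54 (HCT116), -0.53 (LS174T) and -0.42 (LS513).

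Of 16 genes for receptors, kinases and transcription factors, 9 rose and 2 fell in HCT116, 3 rose and 1 fell in HT29, 5 rose and 1 fell in LS513, and 3 rose and 2 fell in LS174T. Of all genes 16.8%, 21.1%, 13.7% and 13.1% rose in these lines, and 12.3%, 19.6%, 9.90% and 9.15% fell. The numbers that rose in HT29 and LS174T were near that background. IRF9 (log2 fold change 3.28) and STAT2 (1.08) rose in HCT116. IRF7, a factor that amplifies interferon genes, rose there too (3.43). IRF9 rose in HT29 (0.64), and both IRF9 (0.86) and IRF7 (1.13) rose in LS513, whereas in LS174T IRF9 was at -0.27 (adjusted p = 0.267) and IRF7 at 0.21 (adjusted p = 0.493). The receptor chain IL10RB rose in all 4 lines, by 0.29 to 0.73, as did the interferon gamma receptor chain IFNGR2, by 0.31 to 0.87, and IFNGR1 rose in LS513, HCT116 and LS174T.

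**Figure D4:**
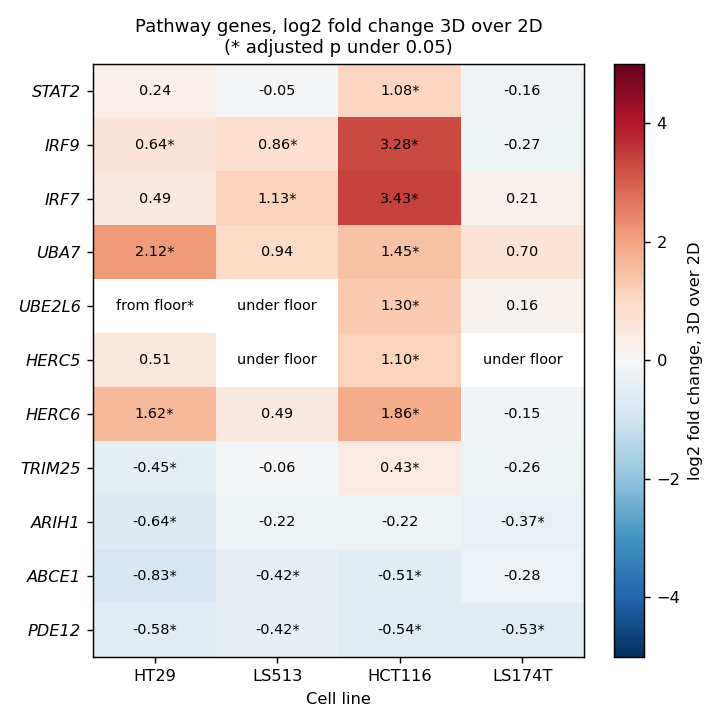
Log2 fold change of 3D over 2D for STAT2, IRF9 and IRF7, the ISG15 conjugation genes, ABCE1 and PDE12 in the 4 lines, with an asterisk at an adjusted p under 0.05. Under floor means at most 3 counts in every library, from floor means at most 3 counts in every 2D library, and HCT116 has the highest values for STAT2, IRF9 and IRF7.

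The other 20 antiviral effectors had median log2 fold changes of 2.56 in HCT116, 1.04 in HT29, 0.00 in LS513 and -0.09 in LS174T. In HCT116 19 of the 20 rose and none fell in edgeR, in DESeq2 or at an unadjusted p under 0.05. Of all genes, 16.8% rose and 12.3% fell there in edgeR. IFIT1 had a log2 fold change of 4.68 and PARP9 of 2.59, and SAMHD1 was the exception (0.18). In HT29 11 rose, among them IFI27 (2.35) and IFI35 (1.37), and 5 fell, against 21.1% and 19.6% of all genes. In LS513 2 rose, IFI27 (1.13) and RSAD2, which went from 0 counts to 4 to 5 counts in each library, and SAMHD1 fell (-0.34). Of all genes, 13.7% rose and 9.90% fell in LS513, and these counts were near those shares. In LS174T none rose in edgeR or DESeq2, with 2 at an unadjusted p under 0.05, against 13.1% of all genes in edgeR. There 5 fell, against 9.15% of all genes, among them the RNA editing enzyme ADAR (-0.51) and the kinase EIF2AK2 (-0.64). IFIT1 was at most 0.0634 CPM in LS513.

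Of the 9 interferon genes examined, IFNE alone passed the filter, and the others had at most 15 counts in any library. IFNE, which is known from epithelia, did not pass the test in edgeR in any line, at 33 to 43 counts in HT29 grown in 2D and 28 to 82 in 3D. IFNL1, a type III interferon, had 0 to 2 counts in 2D and 7 to 15 counts in 3D in HT29, and 0 to 1 and 2 to 6 counts in HCT116. IFNL3 had 0 counts in 2D in all lines, up to 8 in HCT116 and up to 4 in HT29 grown in 3D. IFNL1 and IFNL3 were at 0 counts in every library of LS513 and LS174T. These genes were too low to be tested, and IFNL3 shares sequence with IFNL2, whose reads the filter on multiple alignments can remove.

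After the mean of each line was subtracted, the profiles of the 10 genes over 24 libraries were alike to different degrees. Pearson's r, which here rests on libraries that share lines and conditions, was 0.99 between OAS1 and ISG15 and 0.98 between OAS1 and OASL, but 0.42 between OAS3 and MX2 and 0.43 between OAS3 and ISG20. The genes outside the list most like the mean profile were IFI27 (0.97), C19orf66 (0.97), GRHL3 (0.97), PARP12 (0.97) and LGALS9 (0.97). OAS3 was most like DTX3L, PARP9 and DDX58, USP18 most like IFIT3, PARP12 and IFIT2, and ISG20 most like SLC22A18, C6orf223 and PRSS8. Without that subtraction, r takes in differences between the lines as well as the growth effects, and their shares were not tested. The genes most like the mean profile were then RSAD2 (0.94), IFI44L (0.90), RUNDC3A (0.87), LEMD1 (0.87) and APOL2 (0.87).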

How the data were processed

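The deposited files hold unnormalized gene counts, with 1 file for every technical replicate. Per the paper's methods and the submitters' processing notes, stranded polyA libraries were trimmed with Trim Galore 0.4.1 and aligned with STAR, reads that aligned more than once were removed, and exons were counted with HTSeq 0.5.3, whose strand option is not given. The methods name Ensembl 91 while the notes list hg19. Of the gene identifiers in the files, 99.5% are in GENCODE 29, from which positions on GRCh38 were taken.

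Technical replicates were summed to 24 libraries, 8 for each library and 7 for 1 library of HT29 grown in 3D, whose eighth was not analysed here. Groups were taken from the labels. Low counts were removed by filterByExpr in edgeR 4.0.16 (R 4.3.3), and the remaining genes were scaled by TMM and fitted by robust quasi-likelihood with 1 coefficient for each of 8 groups, and p-values were adjusted by Benjamini-Hochberg over 19387 genes. SE is the log2 fold change divided by the square root of F, which is approximate at low counts. Exact permutation of 3 against 3 libraries cannot go below p = 0.1. Alternatives were DESeq2 1.42.0 and its size factors, other filters, a replicate block and subsets of libraries. In simulated data for HCT116, edgeR recovered 198 of 200 changed genes with 6 false calls among 18210 genes. The changed genes lay above a set mean level and were all changed by the same fold, up or down. Smaller changes and changes in scarcer genes were not simulated, so this recovery does not speak for them.

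The members and lists were chosen with earlier results of these data known. All 10 members, the USP18 copy USP41, ABCE1, PDE12, the ISG15 conjugation genes, STAT2, IRF9, IRF7 and interferons over 3 counts are named. So are the 2 genes of smallest p per line from each other list and those most like the members. Some results of these lists are not reported here. Other genes were chosen after their values were seen. Stromal markers, of which COL1A2, DCN and LUM were at or under the floor in all groups, summed to at most 22.4 CPM. IFI27L1 and IFI27L2, listed beside USP41 but named after IFI27, a gene outside the 10, each rose in 3 lines.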

Additional observations from a re-analysis of the deposited data

Results flagged for a closer look

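The growth effect differed between the 4 lines, by the interaction test in edgeR, for 7 genes. The adjusted p was 3.74e-09 for OAS1, 3.78e-09 for IFI6, 3.52e-08 for ISG15, 4.04e-08 for OAS3 and 6.64e-08 for OASL. It was 2.86e-05 for USP18 and 0.00233 for MX1. OAS3 is the one among them with opposite calls, since it rose in HCT116 with a log2 fold change of 1.81 and fell in LS174T with -0.51. Groups of 3 libraries were too small to look for single outlying libraries.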

How the results depend on the processing

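With DESeq2, with its size factors in edgeR and with all genes of at least 1 count, all 40 log2 fold changes of the 10 genes kept their direction and their side of the threshold. Without technical replicate d, 39 did, and OAS2 in LS174T turned to 0.15. With only the 6 libraries of a line, 35 could be fitted and 2 lost their call, OAS1 (adjusted p = 0.0577) and ISG15 (0.0961) in LS174T, which left 1 member and 0 pathway genes higher there. The replicate numbers did not pair the libraries, since deviations of same-numbered libraries correlated at -0.126 to 0.0773. The fit with a replicate block left out 2D replicate 2 and 3D replicate 4 of HT29, whose numbers occur in 1 condition only. In that fit USP18 in HT29 lost its call (log2 fold change 0.47, adjusted p = 0.156), OAS3 in HT29 turned to -0.044, and 1 pathway gene rose in LS174T. Requiring also a log2 fold change over 1.5 left 2 members in LS513 and 1 in LS174T. In HT29 it left out OASL (1.28), ISG15 (1.01) and USP18 (0.89), while the smallest member change in HCT116 was 1.785. Among pathway genes it left 18 of 34 in HCT116, 10 of 17 in HT29, 1 of 8 in LS513 and 0 of 3 in LS174T. When 1 library was left out at a time, members higher in LS174T numbered 1 to 3 and pathway genes 0 to 5, and log2 fold changes near 0 changed sign: OAS2 from -2.62 to 2.75 in LS513 and -0.43 to 0.19 in LS174T, USP18 from -0.085 to 0.03 in LS174T and IFI6 from -0.218 to 0.016 in LS513. Pathway genes in LS174T were 0 without its 2D replicate 1, 1 without its 2D replicate 2 or 3, and 5 without its 3D replicate 3 or 3D replicate 1 or 3 of HCT116. The cause was not tested. Depth limits OAS2 and MX2 in all lines, MX1 in LS513 and IFI6 in LS174T.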
